A study of Mus musculus with 12 samples.

Results

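The patterning step of motor neuron differentiation, from embryoid bodies (EBs) to day 2 progenitors, was described by the accessible chromatin domains that the progenitors gained and lost. EBs are free-floating aggregates of mouse embryonic stem cells, and accessibility was measured by ATAC-seq, in which a transposase cuts and tags open DNA. A progenitor domain of at least 150 bp was called gained when it shared no base with any EB domain, an EB domain of at least 150 bp was called lost when it shared none with any progenitor domain, and the other domains of this width were kept. Among domains on chromosomes 1 to 19, X and Y, 15419 of 41544 progenitor domains were gained (37.1%) and 13627 of 41797 EB domains were lost (32.6%). The kept domains numbered 26125 in the progenitor list and 28170 in the EB list, and 46372 and 53078 domains under 150 bp entered no class. The gained and lost domains together were 29046 of the 182791 domains of both lists, and the 6 lists of the series held 482514.

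Both groups came from the parental Ainv15(iCre) line. The EBs had received neither agent, and the progenitors had spent 2 days in 1 µM all-trans retinoic acid (RA) and 0.5 µM of the Smoothened agonist SAG. No EBs kept for those days without RA and SAG were analysed here, so the agents and the time in culture cannot be told apart. The series held 12 samples in 6 groups, with 4 further groups at day 4: iHoxc6, iHoxc9 and iHoxc10, which carried a Hox transgene induced with 3 µg/mL doxycycline (Dox) for 48 h, and uninduced iHoxc6 cells (no Dox). Each group had 2 samples, and the authors made 1 list of domains from both. There was therefore no value per replicate, no test, and no replicate spread by which to judge a difference between lists. Intervals given below are 95% Wilson intervals and cover the counting of domains only. In bulk material, a domain open in fewer cells and a domain less open in every cell cannot be told apart.

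RA and Hedgehog signals pattern the early neural tube. RA binds nuclear receptors (RAR with RXR) that sit on repeated half-sites in DNA, and it activates the anterior Hox genes and gives cells a hindbrain and spinal identity, while SAG activates Smoothened, as Sonic hedgehog does from the floor plate, and so promotes the ventral progenitors from which motor neurons arise. At the same time, cells leave pluripotency, a state held by POU5F1 (OCT4), SOX2, NANOG and their partners. POU5F1 and SOX2 bind together to a joint Sox-Oct composite element.

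The sequences below are examples of motifs that were compared between the classes, and most changed domains hold neither a Sox-Oct composite nor a DR5. They are from the RefSeq copy of the mouse genome (GRCm38.p6, the build mm10), and the motif is in capitals within a stretch of up to 200 bases of the domain. A pair of lost domains nearest to pluripotency genes held a Sox-Oct composite, out of 74 such domains (2.70%, against 0.499% of all lost domains, over whole domains). The first lay 40.9 kb downstream of the start site (TSS) of Klf5, a Krüppel-like factor of the pluripotency network, in intergenic DNA. The second was the Nanog promoter, where the stretch ends before the annotated untranslated region. No day 4 list held either domain.

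Klf5, lost, composite in capitals, chr14:99339745-99339944 (- strand): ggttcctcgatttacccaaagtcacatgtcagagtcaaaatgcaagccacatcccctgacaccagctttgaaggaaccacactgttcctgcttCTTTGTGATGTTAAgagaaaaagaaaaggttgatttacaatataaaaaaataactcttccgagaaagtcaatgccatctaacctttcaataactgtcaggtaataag
Nanog, lost, composite in capitals, chr6:122707321-122707488 (- strand): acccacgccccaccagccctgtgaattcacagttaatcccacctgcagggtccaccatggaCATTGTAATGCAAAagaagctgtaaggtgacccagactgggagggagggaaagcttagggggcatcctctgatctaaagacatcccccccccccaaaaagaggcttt

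Among the gained domains, DR5 elements are shown, which are direct repeats of the nuclear receptor half-site with 5 bases between them and a classical binding form of RAR with RXR. Of 82 gained domains nearest to retinoid response genes, 2 held a DR5 and none a DR2 (spacing of 2 bases). The Hox genes of paralog groups 1 to 5 had 28 gained domains, of which 3 held a DR5 (10.7%, against 1.07% of all gained domains, over whole domains). Among them were an intronic domain of Hoxd3 that was 1497 bp wide and an intergenic domain 27.2 kb downstream of Hoxc4 that was 997 bp wide. These examples were chosen after their values had been seen. Both domains were held by all 4 day 4 lists.

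Hoxd3, gained, DR5 in capitals, chr2:74741448-74741647 (+ strand): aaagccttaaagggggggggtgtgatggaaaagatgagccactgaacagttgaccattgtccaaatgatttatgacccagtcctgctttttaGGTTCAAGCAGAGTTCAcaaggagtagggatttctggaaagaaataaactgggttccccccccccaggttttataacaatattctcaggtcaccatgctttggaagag
Hoxc4, gained, DR5 in capitals, chr15:103061622-103061821 (+ strand): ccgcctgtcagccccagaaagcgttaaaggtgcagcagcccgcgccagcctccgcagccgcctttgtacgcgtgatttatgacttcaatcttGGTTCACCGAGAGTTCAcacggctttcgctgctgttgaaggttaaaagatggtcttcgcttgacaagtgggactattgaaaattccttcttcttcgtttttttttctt

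Another 2 stretches, also chosen after values had been seen, show an E-box of lost domains and a homeodomain site of gained domains. The lost one lay 80.7 kb upstream of Nr5a2, which encodes a nuclear receptor of pluripotent cells, and held 3 copies of CACCTG or its reverse complement CAGGTG. This E-box is bound by ZEB and SNAI repressors and by E proteins. The gained one lay 326 kb upstream of Rarb, the RA receptor gene that RA itself induces, and held 2 copies of TGATTNAT, the joint site of PBX and HOX proteins.

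Nr5a2, lost, E-box in capitals, chr1:137041050-137041249 (+ strand): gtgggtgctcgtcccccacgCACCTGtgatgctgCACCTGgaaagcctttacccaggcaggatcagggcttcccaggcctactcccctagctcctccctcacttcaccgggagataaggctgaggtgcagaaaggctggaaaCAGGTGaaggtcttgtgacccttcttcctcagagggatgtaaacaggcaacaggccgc
Rarb, gained, PBX-HOX site in capitals, chr14:16901907-16902106 (+ strand): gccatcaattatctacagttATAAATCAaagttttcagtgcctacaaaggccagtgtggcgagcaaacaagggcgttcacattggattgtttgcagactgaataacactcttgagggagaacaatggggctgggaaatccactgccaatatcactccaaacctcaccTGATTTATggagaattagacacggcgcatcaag

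Gained domains were wider than lost ones and covered more of the genome. The median width was 291 bp for gained and 252 bp for lost domains, against 546 bp and 452 bp for the kept domains of progenitors and EBs. Gained domains covered 5.43 Mb and lost domains 4.02 Mb. At least 500 bp were reached by 2695 gained domains (17.5%) and 1179 lost ones (8.65%), and at least 1 kb by 209 and 36. Domains just inside the minimum, of 150 to 199 bp, lacked a counterpart in 3033 of 6121 progenitor and 3877 of 7761 EB cases, and those just outside it, of 100 to 149 bp, in 41.5% and 56.0%. Most changed domains stood away from any domain of the other list, with a median gap of 9.01 kb for gained and 8.04 kb for lost ones, and 6.78% and 7.56% lay within 500 bp of one.

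**Figure D1:**
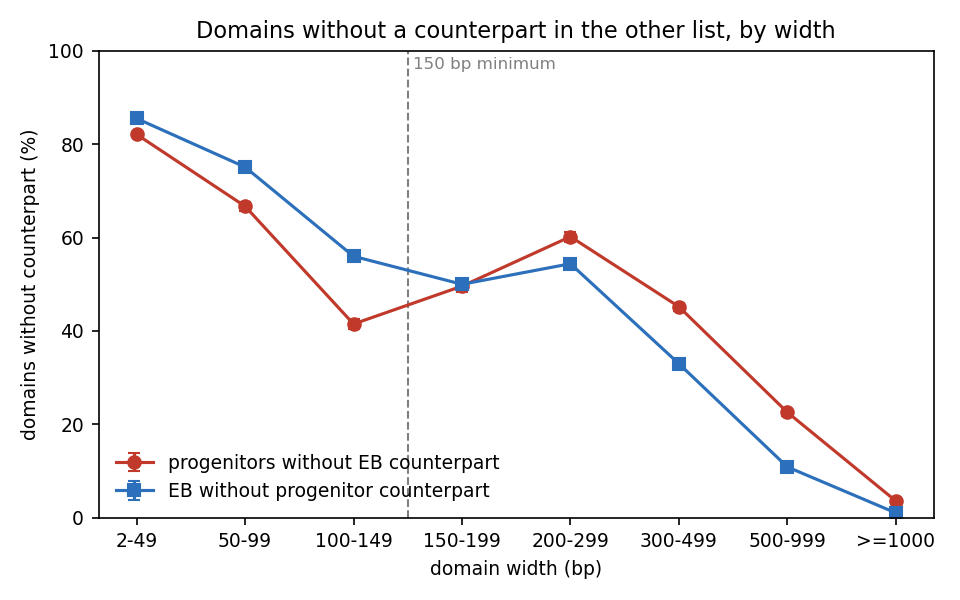
Share of domains without a counterpart in the other list (%, y axis) by domain width in bp (x axis), for progenitor domains (circles) and EB domains (squares), with 95% Wilson intervals. From 200 bp upwards the progenitor share was above the EB share, 45.2% against 33.0% from 300 to under 500 bp and 22.6% against 10.9% from 500 to under 1000 bp.

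All 4 day 4 lists held the 3 widest gained domains. They were a domain of 2430 bp (chr2:137704835-137707264) in an intron, with Btbd3 as the nearest protein-coding gene at 551 kb, one of 1841 bp 84.7 kb from Nck2, an adaptor of receptor signalling, and one of 1811 bp 273 kb from Gm11232. The widest lost domains were 1631 bp near the proteasome gene Psmd12 (chr11:107509753-107511383), 1478 bp in an intron of Pde4d, a cyclic AMP phosphodiesterase, and 1470 bp at the promoter of Sox18, a vascular SOX factor. The Psmd12 and Pde4d domains were open again in the iHoxc9 list and in no other day 4 list, and the Sox18 domain in the no Dox and iHoxc6 lists.

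The changed domains were mostly distal, the gained ones more so. A promoter, taken as a centre within 1 kb of a protein-coding TSS, held 3.46% of gained domains (3.19 to 3.76), 5.96% of lost domains (5.57 to 6.37) and 49.7% of the kept progenitor domains. Of the gained domains 48.9% were intronic and 44.1% intergenic, and of the lost domains 40.8% and 46.0%. Coding exons held 0.869% of gained (0.734 to 1.03) and 3.89% of lost domains (3.58 to 4.23), against 2.27% and 2.79% of the kept domains of progenitors and EBs. The median distance to the nearest TSS was 63.9 kb for gained, 35.2 kb for lost and 1.07 kb for kept progenitor domains. Among distal domains alone it was 68.3, 40.3 and 25.0 kb in that order, so gained domains still lay farthest from start sites once promoters were set aside. By chromosome, the gained share of progenitor domains ran from 28.8% on chromosome 11 to 44.3% on chromosome 14, and it was 4.88% on Y, where 2 domains were gained. Wide gained domains were at promoters less often (2.26% of those of at least 500 bp) and wide lost domains were not (6.87%).

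**Figure D2:**
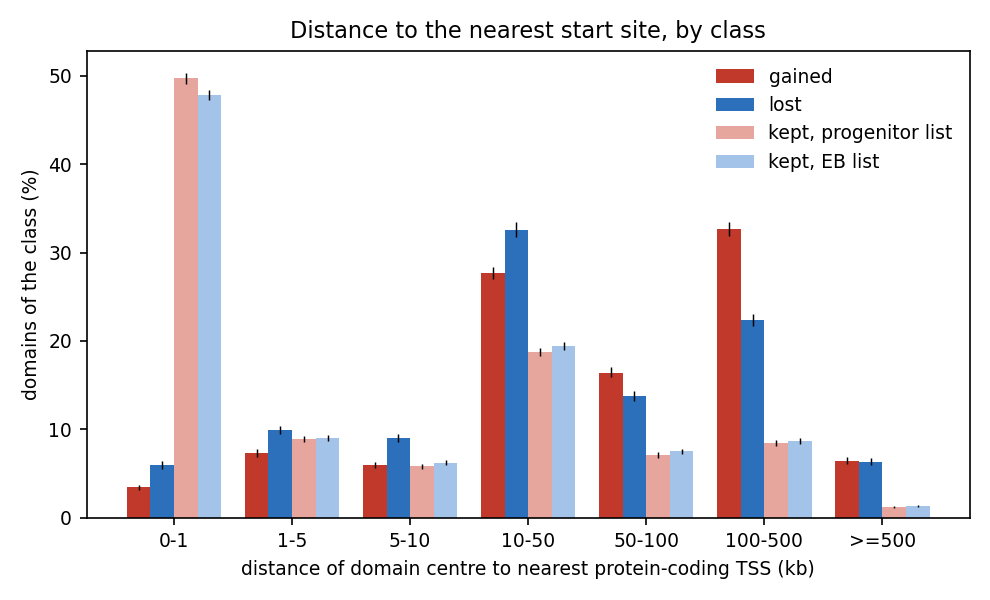
Share of the domains of each class (%, y axis) by distance of the domain centre to the nearest protein-coding TSS in kb (x axis), with 95% Wilson intervals. Between 100 and 500 kb lay 32.7% of gained and 22.4% of lost domains, and within 1 kb 49.7% of the kept progenitor domains.

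Most promoters held a domain in both lists or in neither. A promoter counted as opened when it held a gained domain and no EB domain of any width, and as closed when it held a lost domain and no progenitor domain. Of 21827 protein-coding genes, 134 opened (0.614%) and 416 closed (1.91%), while 13999 held a domain in both lists (64.1%) and 6466 in neither (29.6%). At the other 812 (3.72%) a domain stood in 1 list alone but met neither definition. Of the opened promoters 74.6% held a domain in the no Dox list, and 55 did so in all 4 day 4 lists. Of the closed promoters, 257 (61.8%) held none in any day 4 list.

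Each domain was then given to the protein-coding gene with the nearest TSS, which names a neighbour and not a target. Gained domains had 6249 genes as nearest (28.6% of all), lost domains 7169 (32.8%), and 3630 genes were nearest to both. More gained than lost domains were found at 4112 genes (18.8%), and more lost than gained at 4507 (20.6%). Per 100 kb of the stretch nearest to a gene, all genes together had 0.580 gained and 0.513 lost domains. The gene lists are read against these shares. Genes in long stretches collect more domains of either kind, so counts per 100 kb are given as well.

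Pluripotency genes had more lost than gained domains, and they held 5 of the closed promoters. Of 28 genes, 16 had more lost and 7 more gained domains (57.1% and 25.0%), with 74 lost and 59 gained domains in all, or 1.03 and 0.821 per 100 kb. Pou5f1, which encodes OCT4, had 3 lost and no gained domains in a stretch of 23.3 kb, the densest loss in its list after Tdgf1. They were 687 bp and 370 bp at the promoter (centres 0.970 and 0.103 kb upstream) and 433 bp at 2.07 kb upstream, and none was held by a day 4 list. Nanog had a lost promoter domain of 623 bp and another of 589 bp 8.53 kb downstream, again in no day 4 list. The other closed promoters of the list were those of L1td1, an RNA-binding protein, Tdgf1, a Nodal co-receptor with 3 lost domains, and Zscan10, a zinc finger factor. No progenitor or day 4 list had a domain at any of these 5 promoters.

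The closure was not uniform over the pluripotency network. Fbxo15, a classical OCT4 target, had 8 lost domains and no gained one, Klf5 7 lost and 3 gained, and Esrrb, an orphan nuclear receptor, 5 lost and 1 gained, while promoter domains remained at all 3 genes. Klf4 had 2 lost and 3 gained domains and Tfcp2l1 1 lost and 3 gained, both factors of naive cells. Sall4 had 6 gained domains and no lost one, and Sox2, which neural progenitors share with stem cells, had 17 gained and 5 lost domains. The formative genes, which mark cells about to leave pluripotency, had a like balance, with 9 of 15 genes having more lost and 3 more gained domains. Pou3f1 had 4 lost domains and no gained one, and Otx2, which also specifies forebrain, had 5 lost and 3 gained domains and a closed promoter. The no Dox and iHoxc6 lists again held a domain at the Otx2 promoter.

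Retinoid response genes leaned the other way. Of 24 genes, 14 had more gained and 4 more lost domains (58.3% and 16.7%), or 1.44 gained and 0.722 lost per 100 kb. Crabp2, which carries RA to its receptor, had the most gained domains per 100 kb of any gene with at least 5 (24.7), with 5 gained and 1 lost domain in a stretch of 20.3 kb. Of these 5, 2 lay at its promoter, and 2 of 460 and 631 bp lay 9.65 and 10.6 kb downstream. Rarb had 8 gained domains and 1 lost, with 1 gained domain of 830 bp in an intron 1.62 kb downstream of the TSS and 1 of 1184 bp 158 kb upstream. Cyp26a1 and Cyp26b1, which degrade RA, had 2 and 6 gained domains, against none and 1 lost. Cyp26a1 also had a kept promoter domain that was 55 bp wide in EBs and 854 bp in progenitors, so the class of kept domains hides part of the opening. Rarg, another RA receptor gene, had 2 lost domains and no gained one.

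The anterior Hox genes had the densest gain of any list. The 15 genes of paralog groups 1 to 5 had 28 gained domains and 1 lost, or 7.10 and 0.254 per 100 kb, with 9 genes having more gained domains and none more lost. Hoxc4 had 8 gained domains, Hoxd3 6, Hoxa4 and Hoxb3 3 each, and Hoxb1 the lost one, of 180 bp, 3.23 kb downstream of its TSS. Hoxd3 (21.5 per 100 kb) and Hoxc4 (10.0) were among the 5 densest genes with at least 5 gained domains, with Crabp2, Mkrn3 (13.7) and St6galnac1 (10.5). Hoxb3 had an opened promoter, held by all 4 day 4 lists. A kept domain at the Hoxa2 promoter widened from 43 to 1705 bp. The 24 genes of paralog groups 6 to 13 had 4 gained and 4 lost domains, and Hoxc9 a closed promoter, which the iHoxc6 list held again. These genes stand close together, so the nearest TSS divides a cluster and does not give a domain to one gene with certainty.

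Genes of the neural tube and of the Hedgehog pathway gained domains around promoters that were already open, since 32 of 33 and 14 of 15 promoters held a domain in both lists. All 33 neural progenitor factors were nearest to at least 1 gained domain, 25 had more gained and 4 more lost (75.8% and 12.1%), with 151 gained and 70 lost domains in all. Nkx6-1 and Olig2, factors of ventral progenitors, had 11 gained and 2 lost and 5 gained and 0 lost domains. Of the Nkx6-1 domains, 10 lay 74.3 to 367 kb downstream of its TSS. In all, 10 of the 11 were held by the no Dox list and 7 by all 4 day 4 lists. Irx3 had 8 gained and 1 lost domain, and Pax6, a factor of the neural tube at middle levels, 5 and 1. Of the 15 Hedgehog genes, 8 had more gained and 1 more lost domains, with 50 gained and 17 lost. Foxa2, the floor plate factor, had 13 gained and 2 lost, and the receptor gene Ptch1, a target of the pathway, 5 and 3, while Gli1, Smo, Sufu and Kif7 had no gained or lost domain at all.

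Marker genes were used to check the labels. In EBs, promoter domains stood at 6 of 6 pluripotency markers and in progenitors at 4 of 6, without Pou5f1 and Nanog. The 5 neural markers had promoter domains in both lists and 31 gained and 6 lost domains. The 4 motor neuron markers Isl1, Mnx1, Lhx3 and Chat and the 7 mesoderm and endoderm markers also had promoter domains in both lists, so an accessible promoter did not tell the stages apart. Of the latter, Foxa2 held 13 of the 19 gained domains. Of the crest markers, Sox10 had no promoter domain in either list, while Foxd3 and Tfap2a had promoter domains in both. The share of other cell types in the EBs and their part in the changes were not tested.

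Among the lists of other fates, 8 of 17 mesoderm and endoderm genes, 11 of 21 motor neuron genes, 7 of 14 crest and dorsal genes and 5 of 13 forebrain and midbrain genes had more gained domains. Ribosomal protein genes, taken for housekeeping, had promoter domains in both lists at all 78 genes. Of the 7 trophoblast genes 4 had more lost and 2 more gained domains, with 13 gained and 11 lost in all, of which 10 and 5 were nearest to Gata3. In that list, the keratin genes Krt8 and Krt18, which are expressed in simple epithelia, had closed promoters, and the no Dox list again held a domain at that of Krt8. The caudal axis genes were even, with 4 of 14 each way, and Wnt8a, a ligand of the primitive streak, had 4 lost domains and a closed promoter.

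**Figure D3:**
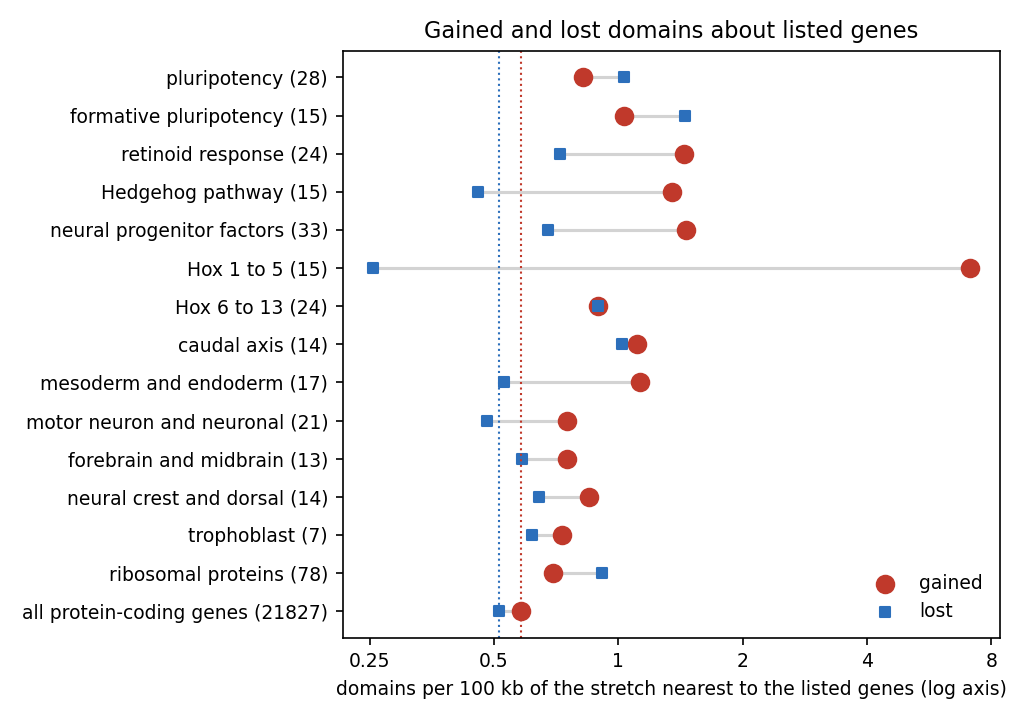
Gained (large circles) and lost (small squares) domains per 100 kb of the stretch nearest to the genes of each list (x axis, log scale), with the number of genes in brackets and the values of all protein-coding genes as dotted lines. The Hox genes of groups 1 to 5 stand at 7.10 gained and 0.254 lost, and both Hox 6 to 13 values are 0.893.

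The genes with most gained or lost domains had long stretches nearest to them, of 1267 to 3706 kb, and several were neuronal adhesion genes. Most gained domains were nearest to Zfp608 (31), Tenm3 (26), Nrxn3 (25), Efnb2, Adgrl2 and Tenm2 (24 each), Sorcs3, Cdh2 and Ptprd (22 each) and Robo2 (21). Tenm2, Tenm3 and Adgrl2 encode teneurins and a latrophilin that bind each other across synapses, and Cdh2 encodes N-cadherin of the neural epithelium. Among the genes nearest to most lost domains were Cntn5 (22), Pcdh9 (20), Nrxn3 (19), Zfp386 and Cdh9 (17 each), Robo1 (16), Arrdc3 and Hace1 (15 each) and Zeb2 (14). Nrxn3, a neurexin, thus stood in both rankings. Among genes with at least 5 lost domains, the densest losses per 100 kb were at Zfp213 (9.39), Tdh (9.29), C77080 (8.45), Nkx3-2 (7.34) and Mdfi (7.14). Tdh, threonine dehydrogenase of mouse stem cells, had 5 lost and no gained domains and a closed promoter, which the iHoxc10 list held again.

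The classes differed in base composition and in repeats, measures that the rule did not use. In the central 150 bp of distal domains, the GC content was 45.7% ± 6.61 (SD over 14885 domains) for gained and 50.6% ± 7.72 (SD over 12815) for lost domains, against 53.6% and 54.0% for kept ones. The difference of 4.90 percentage points was not found 5 kb away, where GC was 42.9% and 43.3%. At least 50% of the window was repeat-masked, that is, part of interspersed or simple repeats, in 3.36% of gained (500 windows), 21.7% of lost (2776 windows) and 4.90% of kept progenitor domains. Windows 5 kb away were so in 20.2%, 25.7% and 20.8%. Lost domains thus held repeats at close to the level of their surroundings, and the other classes far below it. The share reached 33.4% (30.7 to 36.3) in lost domains of at least 500 bp.

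The Sox-Oct composite and the POU octamer were more frequent in lost than in gained domains. Motifs were searched on both strands of the central 150 bp of distal domains. The shares of all windows are over gained, lost and kept domains of both lists. They include promoter windows, so they are not a level for distal windows. In all, 33 motifs were tried. Of these, the T-box word AGGTGTGA had the largest lost-to-gained ratio, 3.30 (0.819% and 0.249%; 0.388% of all windows). CTCF (3.06) and the ETS word CCGGAAG (3.04) came next. The ETS word was in 1.53% of lost and 0.504% of gained windows (3.45% of all), but in 1.86% of kept EB windows. Kept progenitor windows at promoters held it in 7.71%. The Sox-Oct composite was found in 0.258% of lost (0.183 to 0.361; 33 windows) and 0.0873% of gained windows (0.0510 to 0.149; 13 windows), a ratio of 2.95, with 0.120% of all windows holding it. Kept EB windows held it in 0.197% (0.137 to 0.283), an interval that overlaps that of lost windows. The ratio rests on few windows, and it was 5.51 per kb of whole domains and 7.32 in windows of 40 to 50% GC. The POU octamer ATGCAAAT, which can overlap the composite, was in 3.51% of lost (3.21 to 3.84) and 1.24% of gained windows (1.07 to 1.43; 1.62% of all windows), against 2.24% (2.02 to 2.50) of kept EB windows. At equal GC content, 40 to 50%, the shares were 5.63% and 1.28%. The KLF word GGGNGTGG stood at 6.54% and 3.42% (7.45% of all windows), but the ratio was 1.43 at equal GC content, and kept EB windows held more, at 7.60%. TCAAGGTCA, the site of ESRRB, which contains the nuclear receptor half-site, did not follow, with 0.226% in lost and 0.275% in gained windows (0.164% of all windows) and intervals that overlap. The ZIC word CAGCAGG was in 13.2% of lost and 5.42% of gained windows (10.7% of kept EB and 8.45% of all), and CTCF, by name, in 1.13% and 0.369%, both far below the 6.01% of kept progenitor windows.

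A single E-box set lost domains apart. CACCTG was in 20.6% of lost (19.9 to 21.3) and 4.55% of gained windows (4.23 to 4.90), against 10.5% of kept progenitor and 13.6% of kept EB windows and 11.6% of all windows. In windows of 40 to 50% GC that were mostly free of repeats, the shares were 15.5% and 3.85%. Among the 10 E-boxes of the form CANNTG, a family examined after the first values had been seen, no other had a lost-to-gained ratio above 1.51. CAGCTG, the box of proneural factors, was in 12.5% and 12.3%, and CAGATG in 13.8% and 14.7%. CACCTG was depleted as well as enriched: within 200 bp of the centre it occurred 1.41 times per kb in lost, 0.399 in gained and 0.796 in kept progenitor domains, and 600 to 1000 bp from it 0.800, 0.670 and 0.851 times. Of all 1943 words of 6 letters in at least 1% of windows of either class, CAGGTA (10.1% of lost, 2.08% of gained), which shares 5 letters with it, and CACCTG ranked 1 and 3 by the lost-to-gained ratio, at 4.84 and 4.53. The other 8 of the first 10 held CG, and none of these reached a ratio above 1.68 in windows of 40 to 50% GC.

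Nuclear receptor repeats and PBX-HOX sites were more frequent in gained domains. DR5 was in 0.584% of gained (0.474 to 0.720; 87 windows) and 0.117% of lost windows (0.0709 to 0.193; 15 windows), a ratio of 4.99, with 0.182% of all windows holding it, and its share in gained domains was 9.16 times that 5 kb away. Direct repeats of every spacing from 0 to 8 bases were then compared, as were the forms of the PBX-HOX site, after the first values had been seen. The half-sites of these repeats could differ from AGGTCA, as in the DR5 elements printed above. In gained windows DR5 (0.584%) and DR1 (0.551%) were the most frequent, with overlapping intervals, followed by DR2 (0.302%) and DR4 (0.235%), while DR0 and DR8 stood at 0.101%. In lost windows none exceeded 0.117%. By the gained-to-lost ratio, DR3 (7.17, from 25 and 3 windows) and DR1 (5.43) stood above DR5. The other spacings ran from 1.43 for DR0 to 4.09 for DR7. The single half-site AGGTCA was in 15.3% of gained and 9.55% of lost windows (8.80% of all).

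The PBX-HOX site TGATTNAT was in 5.92% of gained (5.55 to 6.31) and 1.53% of lost windows (1.33 to 1.76), against 1.94% of all windows. It was above the level 5 kb away in gained domains (ratio 2.22) and below it in lost (0.620) and kept EB ones (0.629). By its free base, TGATTAAT had the largest gained-to-lost ratio (6.69, 1.62% of gained windows), while TGATTGAT and TGATTTAT were the more frequent forms, at 1.77% and 1.80% with ratios of 3.90 and 3.85, and TGATTCAT stood at 0.920% with 2.41. The 2 words with the largest gained-to-lost ratio of all, ATTAAT (3.10) and ATCAAT (3.02), are the ends of 2 of these sites or their reverse complement. The SOX word AACAANGG was in 8.02% of gained and 4.63% of lost windows (3.78% of all), and ACAATG, which lies within it when N is T, in 22.7% and 10.2%. The GLI word TGGGTGGTC, the site of the Hedgehog effectors, was in 0.417% of gained (0.325 to 0.534) and 0.195% of lost windows (0.132 to 0.288; 0.221% of all). At 40 to 50% GC the gained-to-lost ratio was 3.44 for DR5, 2.82 for PBX-HOX, 2.87 for GLI and 1.25 for SOX. That of the homeodomain word TAATTA (5.93% and 3.45%, with 2.67% of all) was 1.00. At 50 to 60% GC the ratios were 8.28 for DR5, 3.66 for PBX-HOX, 1.84 for GLI, 2.10 for SOX and 2.44 for TAATTA. A match names letters in a window, not a bound factor.

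**Figure D4:**
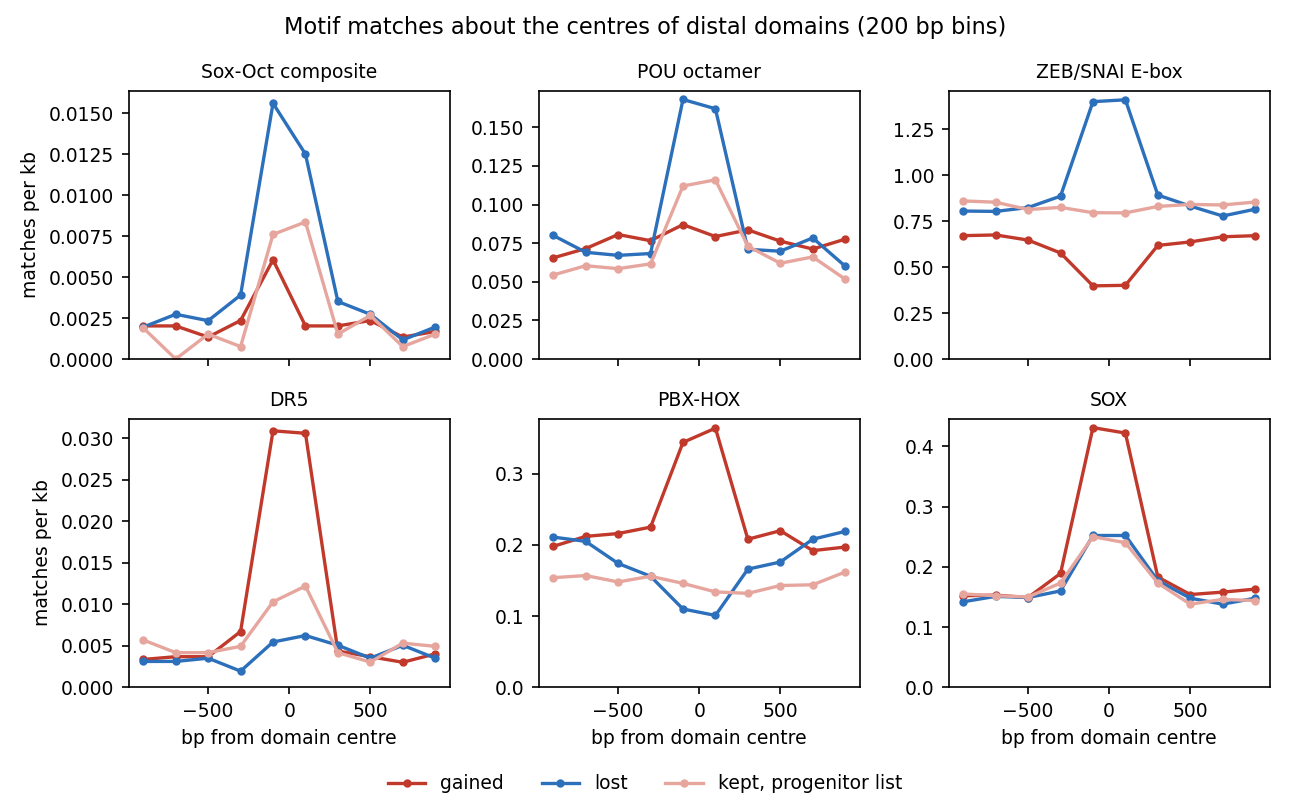
Motif matches per kb (y axis) in 200 bp bins about the centre of distal gained, lost and kept progenitor domains (x axis, bp from the centre). The Sox-Oct composite, POU octamer and ZEB/SNAI E-box are highest at lost centres, and DR5, PBX-HOX and SOX at gained centres. Several also peak elsewhere, by the density within 200 bp over that 600 to 1000 bp away. For the Sox-Oct composite this was 7.20 in lost and 7.64 in kept progenitor domains, and for the POU octamer 2.29 and 1.95. For SOX it was 2.73 in gained, 1.74 in lost and 1.64 in kept progenitor domains. The E-box dips at gained centres (0.399 per kb within 200 bp) and PBX-HOX at lost centres (0.106), as it does at kept EB centres (0.105, not drawn).

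The day 4 lists, which the rule did not use, held a larger share of gained than of lost domains. The no Dox list held 68.6% of gained (67.9 to 69.3), 11.4% of lost (10.8 to 11.9) and 93.1% of kept progenitor domains. The iHoxc6 list was close to it, with 65.9% of gained and 11.3% of lost domains. The iHoxc9 and iHoxc10 lists held fewer gained domains, 38.4% and 44.3%, and fewer lost ones, 6.82% and 5.30%, but they were also shorter, at 63504 and 56232 domains against 88806 and 91181 without Dox and in iHoxc6. Width went with persistence: of gained domains of at least 500 bp, 91.5% were held without Dox and 62.7% in iHoxc9, and of those under 300 bp 56.8% and 28.1%. All 4 lists held 29.6% of gained domains and none held 21.7%. Of lost domains 80.6% were in no day 4 list and 1.86% in all 4, and by width the intervals overlapped without Dox, where 11.8% (10.1 to 13.8) of those of at least 500 bp and 11.0% (10.3 to 11.6) of those under 300 bp were held. In iHoxc6, lost domains from 300 to under 500 bp were held in 12.6% (11.5 to 13.7) and those under 300 bp in 10.7% (10.1 to 11.4). The share of lost domains in the no Dox list changed with the processing, to 3.57% when at least 50% of the domain had to be covered and to 26.5% when both lists were first cut to their widest 40000 domains. The day 4 cells came from other lines than the EBs and progenitors, and the no Dox list has another column layout and carries another day in its name than in its label, so line, series and stage cannot be told apart here.

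Motifs of gained distal domains were set against persistence in the no Dox list, with 10186 domains held and 4699 not held. The 95% intervals of the 2 shares were apart for 7 of the 33 motifs and overlapped for 26. The GLI word was in 0.245% of held (0.166 to 0.362; 25 windows) and 0.787% of the other domains (0.572 to 1.08; 37 windows), so it was less frequent where domains persisted. NF-Y (CCAAT, 18.9% of all windows) was also lower in held domains, at 18.2% against 21.5%. The other 5 were higher in held domains. The RFX word GTTGCCA (2.70% of all windows) was in 4.56% and 2.43%, CAGCTG in 13.5% and 9.56%, CAGATG in 15.7% and 12.3%, the MEIS word CTGTCA (9.98% of all) in 15.3% and 12.9%, and the half-site AGGTCA in 16.0% and 13.9%. The intervals overlapped for DR5 (0.599% and 0.553%), PBX-HOX (6.19% and 5.32%) and SOX (7.66% and 8.81%). Held domains were also wider, and the part of width in these shares was not tested.

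**Figure D5:**
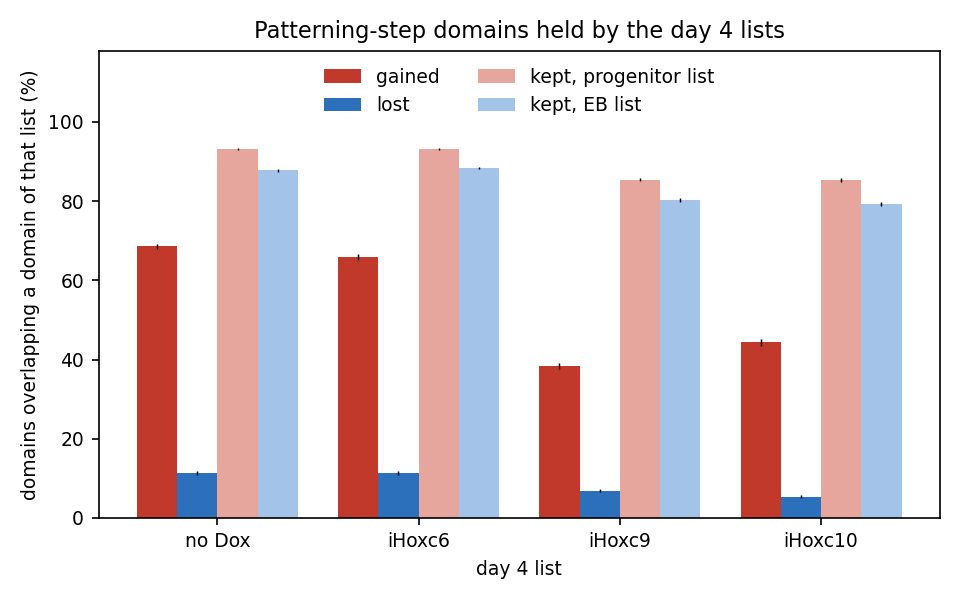
Share of gained, lost and kept domains (%, y axis) that overlap a domain of each day 4 list (x axis), with 95% Wilson intervals. Gained domains stand between 38.4% and 68.6%, and lost domains between 5.30% and 11.4%.

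Kept domains changed in width in both directions. In 29429 pairs of 1 progenitor and 1 EB domain that overlapped each other alone, the median log2 ratio of progenitor to EB width was 0.09. At promoters it was 0.19 and at distal domains -0.06. Only the wider domain of a pair had to reach 150 bp, so the pairs include partners under 150 bp, which belong to no class. The progenitor domain was at least 2-fold wider in 15.7% of pairs and the EB domain in 17.7%. At distal pairs these shares were 20.9% and 25.9%, and at promoters 8.04% and 5.96%.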

How the data were processed

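ATAC-seq was measured in EBs and day 2 progenitors (2 samples each). Reads were aligned by the authors to mm10 (Bowtie2 2.2.2, per the submitters' processing notes), and accessible domains were called with DomainFinder, per the methods of the study. Picard 2.8.2 is named in the same notes. The deposited lists hold chromosome, start and end of domains, 1 list per group from both replicates, with no height, count or p-value, and the read depth is unknown. Starts were read as BED starts and are printed counting from 1, so positions are uncertain by 1 bp.

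Classes, nearest TSS (GENCODE M21, protein-coding) and motif matches were computed with Python 3.11.15 and NumPy 2.4.6, and plots with Matplotlib 3.10.9. On simulated lists and sequences, 54 checks were run and 0 differed. Named were all members of the gene lists, the 10 genes nearest to most gained or lost domains, the 5 densest among those with at least 5, the 3 widest domains, and the 10 words of 6 letters ranked highest each way. The members, lists and rules were chosen with earlier results of these data known. Alternatives were other minimum widths, gaps, list lengths, promoter definitions, windows and overlaps. Some items of these lists and rankings are not reported here.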

Additional observations from a re-analysis of the deposited data

How the results depend on the processing

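Of 51 alternative values of 8 results, 18 stayed within 1.5 times (counts) or within the 95% interval (other values), and 33 moved. A direction was defined only for the GC difference and the Sox-Oct ratio, and no alternative turned either. Single counts and shares have no direction to turn. With a minimum width of 300 bp, 7325 gained and 4876 lost domains remained, with promoter shares of 2.70% and 6.75% and no Dox shares of 81.7% and 12.1%. With 500 bp there were 2695 and 1179, with 2.26% and 6.87% at promoters, 91.5% of gained domains in no Dox, a GC difference of -5.51 percentage points and a Sox-Oct ratio of 19.2, from 1 gained and 8 lost windows. Requiring a gap of 500 bp gave promoter shares of 2.14% and 4.64% and 9.57% of lost domains in no Dox. The widest 40000 domains of each list gave promoter shares of 5.27% and 7.52%, a GC difference of -4.33, and no Dox shares of 73.0% and 26.5%. The first 40000 lines of each list, an alternative chosen after seeing the data, gave 5.07% and 7.62%, -4.65, and 77.7% and 24.8%. Promoters within 5 kb held 10.8% of gained and 15.9% of lost domains, and start sites of all annotated genes gave 6.33% and 9.93%. Requiring 50% of a domain to be covered gave no Dox shares of 50.7% and 3.57%. The Sox-Oct ratio was 7.32 in windows of 40 to 50% GC. Windows under 50% repeat-masked, also added later, gave a GC difference of -4.99 and a ratio of 2.76. The cause of these changes was not tested. No paired analysis was possible because each list was made from both replicates, and no replicate could be left out. The depth behind the lists is unknown, so a domain missing from a list may be below its calling threshold.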

Other observations

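The 416 closed promoters also held groups that no list covered, named here after their values had been seen. Promoters of germline genes were among them: Ddx4, an RNA helicase of germ cells, Dmc1 and Sycp3, of meiotic recombination and the synaptonemal complex, Piwil2, of the piRNA pathway, Tex19.1, and Zp3, of the egg coat, each held a domain in the EB list and in no later list. The promoters of Lefty1 and Gdf3, secreted factors of the Nodal pathway, were likewise open in the EB list alone, and that of Foxh1, a cofactor of Nodal signalling, in the EB and no Dox lists. The promoter of Cer1, another secreted factor of this pathway, went the other way and was open in the progenitor list alone. No share of all germline or Nodal pathway genes was computed.

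Lost repeat-rich windows differed from other lost windows in their letters. The NF-Y word CCAAT was in 29.1% (27.4 to 30.8) of the 2776 lost distal windows that were at least 50% repeat-masked and in 20.2% (2028 windows) of the other 10039, and the YY1 word AAGATGG in 5.66% (4.86 to 6.58) and 1.97% (1.72 to 2.26). The POU octamer was in 2.59% and 3.77% of them. Which repeat families the windows belong to was not analysed here.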
